A study of Mus musculus with 15 samples.

Results

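The genes described here make the parts of major histocompatibility complex (MHC) class I antigen presentation, and they were examined for the histone mark H3K27ac in a mouse model of fusion-positive rhabdomyosarcoma (FP-RMS). There were 10 of them among 21000 protein-coding genes, chosen by name for their role: the heavy chains H2-K1 and H2-D1, the light chain B2m, the transport and loading proteins Tap1, Tap2 and Tapbp, the immunoproteasome subunits Psmb8, Psmb9 and Psmb10, and the transactivator Nlrc5. A peak belonged to a gene when it overlapped the RefSeq span of that gene or 10 kb on either side. It was then placed in the promoter (2 kb on either side of a curated start site), in the rest of the gene body or in the flank. By this rule 53 of the 122375 peaks of the list belonged to the 10 genes.

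The list came from 1 library, MCP H3K27ac replicate 5, so no value here has a replicate and no test between conditions was made. MCP tumors arose in mice with Myf6-Cre, the Cdkn2a(Flox/Flox) alleles, the reporter R26-tdTom and an allele of Pax3 that the labels spell Pax(3P3F/P3F) and the study Pax3(P3Fm/P3Fm), in which Cre made by myogenic cells turns on the fusion gene PAX3-FOXO1, deletes Cdkn2a and marks the cells with tdTomato. The age, sex and strain of the mouse are not given in the labels, and the tumor cells were dissociated and sorted live, without a sort for tumor identity stated there. The series has 15 libraries, and the 6 MCP IgG and TCP IgG libraries, the 3 TCP H3K27ac libraries and the other 5 MCP H3K27ac libraries were not analysed here. CUT&RUN cuts out the DNA beside an antibody, H3K27ac marks active promoters and enhancers, and a matched IgG reaction gives the background. Where cells of several kinds share a sample, fewer marked cells and less mark per cell cannot be told apart.

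MHC class I molecules show fragments of a cell's own proteins to cytotoxic T cells. The proteasome cuts proteins into peptides, and in inflamed tissue the subunits Psmb8, Psmb9 and Psmb10 replace constitutive subunits in its active sites. The Tap1 and Tap2 transporter carries the peptides into the endoplasmic reticulum, where tapasin, the product of Tapbp, holds empty class I molecules close to it. A heavy chain then folds around a peptide together with beta-2 microglobulin, the product of B2m, and moves to the cell surface. Nlrc5 switches these genes on through a conserved promoter module that binds the RFX complex, CREB or ATF proteins and NF-Y, and interferons and NF-kB act on the same promoters. Low class I presentation is common in tumors.

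The promoter sequences of the genes that the results turn on are shown with the letters that were searched for in them. RefSeq promoter entries of build GRCm38.p6 matched 8 of the 10 genes; Tap2 and Nlrc5 had none. The bases before the start site are printed for H2-D1 (chr17:35262844-35263093, plus strand), B2m (chr2:122147437-122147686, plus strand), Psmb8 (chr17:34197945-34198194, plus strand) and Psmb10 (chr8:105938393-105938642, minus strand). The stretch of 225 bases that lies between the divergent start sites of Psmb9 and Tap1 is printed once, along Tap1 (chr17:34187331-34187555, plus strand). Each runs 5′ to 3′, and the others are 250 bases long. The same bases of H2-K1 (chr17:34000348-34000597, minus strand) lie in the first exon of predicted transcripts that start farther upstream, so they were searched but are not printed. Capitals mark matches, on either strand, to the interferon-stimulated response element core GAAANNGAA, the gamma-activated site TTCNNNGAA, the NF-kB-like site GGNNTTNCC, the Y box CCAAT, the cyclic AMP response element (CRE) core TGACG or the E box CAGCTG. No marked matches overlap one another.
H2-D1: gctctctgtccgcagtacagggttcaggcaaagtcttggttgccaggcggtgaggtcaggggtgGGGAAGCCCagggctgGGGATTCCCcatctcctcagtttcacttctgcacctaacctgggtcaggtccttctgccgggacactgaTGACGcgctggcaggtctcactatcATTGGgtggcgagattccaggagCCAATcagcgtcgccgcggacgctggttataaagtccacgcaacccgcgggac
B2m: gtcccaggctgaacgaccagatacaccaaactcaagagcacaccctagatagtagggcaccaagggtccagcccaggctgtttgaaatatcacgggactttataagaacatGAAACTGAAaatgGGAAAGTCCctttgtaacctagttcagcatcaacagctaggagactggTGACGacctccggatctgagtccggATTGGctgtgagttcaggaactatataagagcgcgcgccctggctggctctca
Psmb9 and Tap1: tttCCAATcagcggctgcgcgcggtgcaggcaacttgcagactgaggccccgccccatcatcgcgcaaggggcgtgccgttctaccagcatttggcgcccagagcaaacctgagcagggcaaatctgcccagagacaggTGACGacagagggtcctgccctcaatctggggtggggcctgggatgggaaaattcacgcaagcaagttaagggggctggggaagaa
Psmb8: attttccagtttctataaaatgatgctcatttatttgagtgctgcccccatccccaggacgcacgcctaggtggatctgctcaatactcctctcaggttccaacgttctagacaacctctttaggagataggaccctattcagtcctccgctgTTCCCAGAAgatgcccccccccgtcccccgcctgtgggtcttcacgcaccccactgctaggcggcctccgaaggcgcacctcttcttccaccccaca
Psmb10: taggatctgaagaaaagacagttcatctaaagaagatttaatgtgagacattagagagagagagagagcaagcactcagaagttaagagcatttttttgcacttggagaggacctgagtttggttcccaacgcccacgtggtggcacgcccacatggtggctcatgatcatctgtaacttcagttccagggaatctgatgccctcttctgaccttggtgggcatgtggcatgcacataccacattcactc

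In these promoters the heavy chains and B2m held the same set of letters in the same order, an NF-kB-like match, then a CRE core, then a Y box. In H2-K1 the NF-kB-like matches started at -126 and -110 from the start site, the CRE core at -41 and the Y box at -16. In H2-D1 they started at -186 and -170, at -101 and at -76, with a second Y box at -53. A stretch of 177 bases aligned between both heavy chain promoters without a gap, with 161 identical bases (91.0%), and it lay 60 bases closer to the RefSeq start site in H2-K1 than in H2-D1. In B2m the NF-kB-like match started at -126, the CRE core at -78 and the Y box at -53. B2m was the only one of the 8 genes with a match to GAAANNGAA, the searched form of the interferon-stimulated response element core, at -139. Other forms of this element were not searched, so the other promoters are not shown to lack it. The stretch shared by Psmb9 and Tap1 held a Y box at -8 from the Psmb9 start and a CRE core at -86 from the Tap1 start. Psmb8 held a gamma-activated site at -97 and none of the other motifs. Tapbp, not printed, held 2 Y boxes, and all 250 of its searched bases lie in curated exons of Zbtb22 or Gm19412. Psmb10 held none of the 6 motifs in this window, and forms of the E box other than CAGCTG were not searched.

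Over all 32851 RefSeq promoter entries, the NF-kB-like site was found in 13.5% of the same 250 bases and in 3 of these 8 genes. The CRE core was found in 17.8% of entries and in 5 of the 8 genes, the Y box in 33.8% and in 6, the response element core in 7.13% and in 1, the gamma-activated site in 7.02% and in 1, and the E box in 13.0% and in none. Several entries belong to 1 gene, and Psmb9 and Tap1 share their letters. These matches describe the reference sequence and say nothing of binding in these cells.

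H3K27ac peaks lay at the promoters of 9 of the 10 genes. Over all protein-coding genes 45.6% had such a peak. Nlrc5 was the gene without one at its curated start site. The fold enrichment over IgG at the summit of the strongest promoter peak had a median of 6.53 over the 9 genes (range 5.22 to 8.24), against 7.24 over the 9569 genes with a promoter peak (quartiles 5.65 and 9.47). The highest member, B2m, ranked above 62.0% of those genes, and the lowest pair, Tap1 and Psmb9, above 16.6%. With a 1 kb promoter window the strongest B2m fold was 6.75, and Psmb10 was highest at 8.14. When the list was limited to its strongest 25% of peaks by -log10 q, the -log10 of the p adjusted for multiple testing, promoter peaks remained at 8 genes and 29.3% of all genes had one. Psmb8 was then without a promoter peak as well as Nlrc5.

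**Figure D1:**
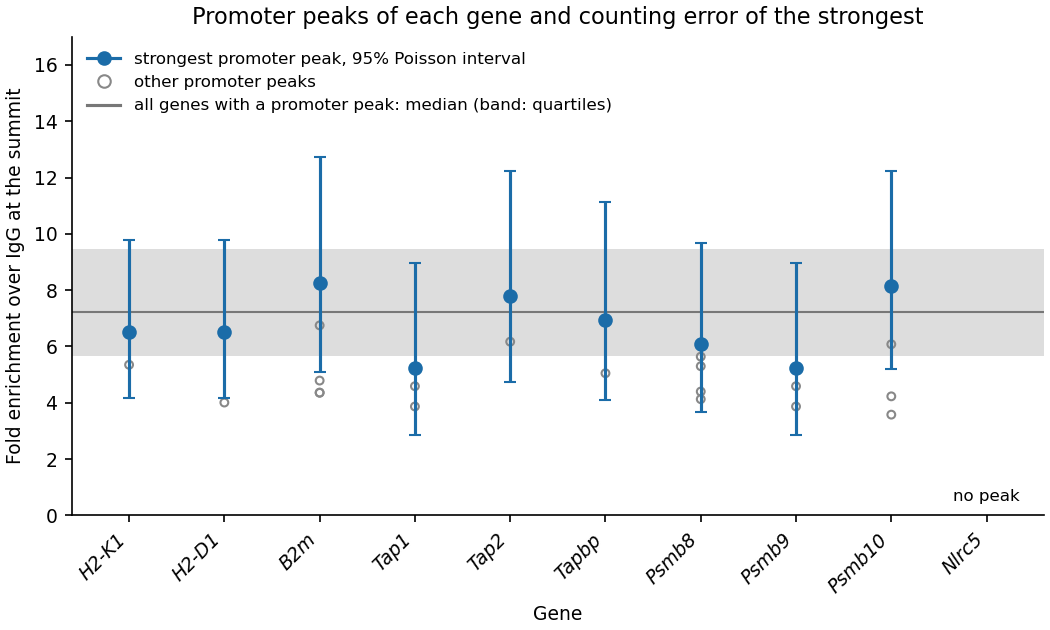
Fold enrichment over IgG at the summit (y axis) of each promoter peak, by gene (x axis). Filled points are the strongest promoter peak with its exact Poisson 95% interval from the recovered fragments, at a fixed background. Open points are the other promoter peaks. The line and band are the median 7.24 and quartiles of all genes with a promoter peak. The strongest peaks lie between 5.22 and 8.24, and their intervals all overlap.

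The fragments behind these values were few, so that the order of the genes is uncertain. The numbers were recovered from the fold and p of each peak as explained under the processing, and they cover counting error only. The strongest promoter peak rested on 21 fragments in H2-K1 (exact Poisson 95% interval 13.0 to 32.1), 21 in H2-D1, 18 in B2m (10.7 to 28.4) and 11 in Tap1 and Psmb9 (5.49 to 19.7). As folds, the intervals ran from 2.85 to 8.96 at Tap1 and Psmb9 and from 5.08 to 12.7 at B2m. The lowest and highest strongest peaks were thus not separated. These fold intervals hold the IgG background fixed, so they leave out its own counting error and are too narrow. Of the 53 peaks, 47 had fewer than 20 fragments over the summit. The median over the 53 was 13.0 fragments, a fold of 5.22 and a width of 119 bp. Over the whole list the medians were 13.0 fragments, 5.22 and 163 bp.

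The 53 peaks were made up of 27 promoter peaks, 15 gene body peaks and 11 flank peaks, and 12 of the promoter peaks lay in the windows of several of the 10 genes. Each of the 10 genes had a peak in the gene or within 10 kb, as 63.2% of all genes did. Of the 10, 1 gene, Nlrc5, had peaks inside the gene but outside the promoter, while 33.2% of all genes had one. Nlrc5 is 92938 bp long and the others 2665 bp (Psmb10) to 11843 bp (Tap2), so the promoter window takes more of the others. The number of peaks per 10 kb of gene and flank had a median of 2.21 over the 10 genes. It ranged from 0.813 at H2-K1 to 4.30 at Psmb8. Over all genes, those without a peak included, the median was 0.444. Flanks also hold peaks at the promoters of other genes, and genes that lie side by side count the same peaks.

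**Figure D2:**
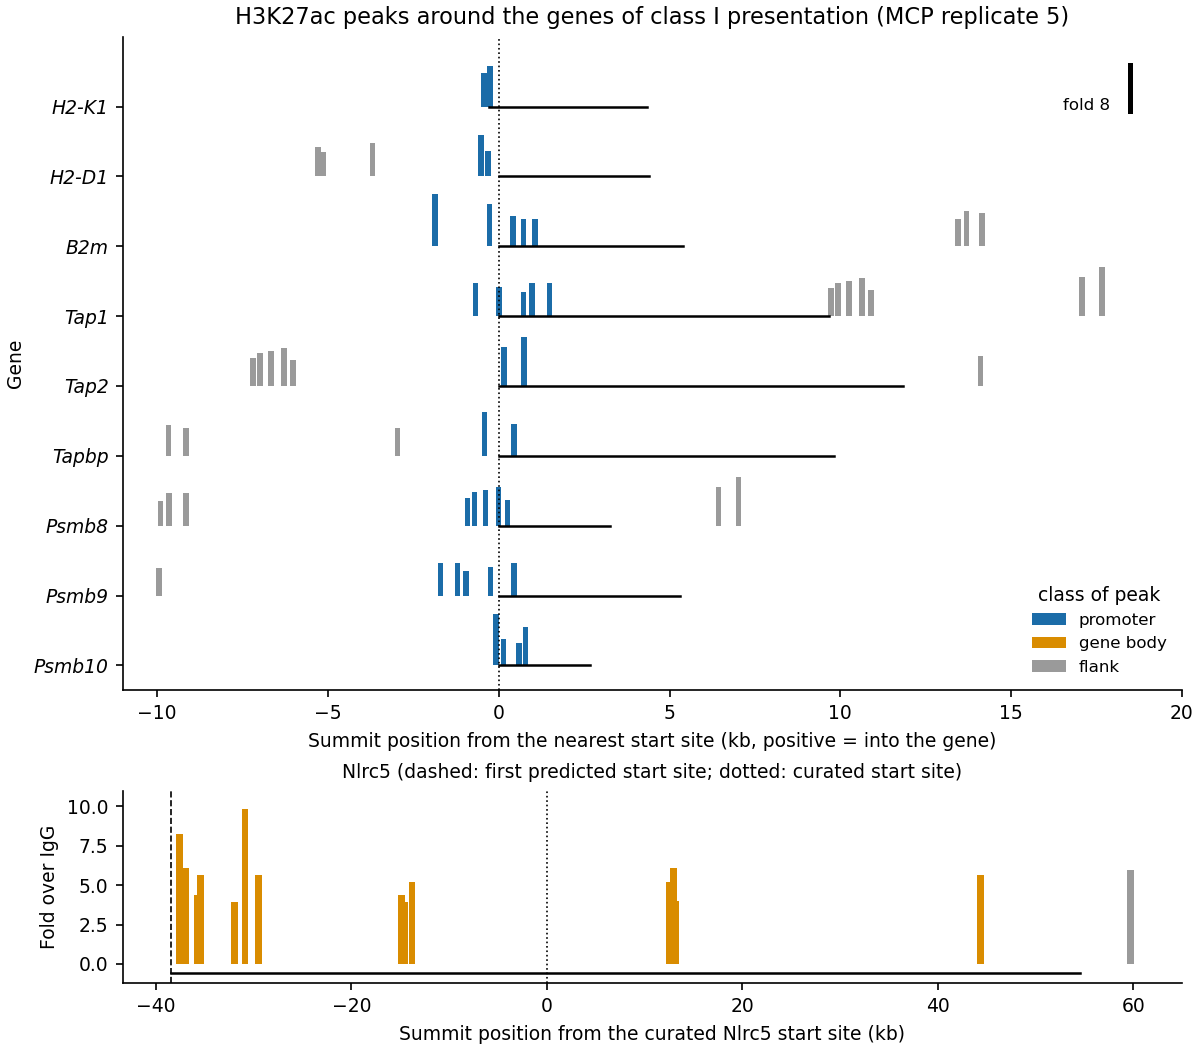
Summits of the peaks at each gene by distance in kb from the nearest curated start site (x axis). In the upper panel bars show fold over IgG to the scale given and black lines the gene. In the lower panel Nlrc5 is drawn with fold on the y axis. Blue bars are promoter peaks, orange bars gene body peaks and grey bars flank peaks. In 9 genes promoter peaks stand near the start site, and in Nlrc5 15 gene body peaks lie away from the curated start.

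H2-K1 and H2-D1 encode the classical heavy chains, which bind the peptide. H2-K1 (GeneID 14972, chr17:33996012-34000619, minus strand) had 2 peaks, and both were promoter peaks upstream of the curated start sites. The stronger, at chr17:34000549-34000636, had its summit 255 bp upstream, a fold of 6.53 and a -log10 q of 9.13, and this summit lies inside the RefSeq gene record, in predicted transcripts that start farther upstream. The other, 438 bp upstream, had a fold of 5.35 with 17 fragments. H2-D1 (GeneID 14964, chr17:35263094-35267497, plus strand) also had 2 promoter peaks upstream. Its stronger peak at chr17:35262529-35262653 had its summit 516 bp upstream with the same fold of 6.53 and 21 fragments, and the other, 310 bp upstream, had a fold of 4.01 with 17 fragments. The equal values at both genes are not unusual, since 490 peaks of the list shared this fold and p. H2-D1 had 3 more peaks in its upstream flank, 3.69 to 5.30 kb from the start, with folds of 3.86 to 5.35. Neither heavy chain had a peak with its summit downstream of a curated start site.

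Class I heavy chain genes share sequence and differ between mouse strains. The strain and MHC haplotype of this mouse are not given in the sources used here, and sequence copies were counted in the reference genome alone. The methods of the study describe a mapping that dropped read pairs with more than 2 places and could report both of 2, but which mapping made this list is uncertain. Words of 50 bases were counted in the reference genome on both strands. Over the H2-K1 gene 83.7% of the words were found once, 5.44% were found in 2 places and 10.8% in more, and over H2-D1 83.8% were found once. The stronger H2-K1 peak consisted of words found once (100%), and in its weaker peak 61.6% were. In the stronger H2-D1 peak 77.6% were found once and the other 22.4% in 3 places, and the weaker H2-D1 peak was single throughout. Copies of words under these 4 peaks lay at H2-K1, H2-D1, H2-K2 and at places with no gene within 1 kb. With the heavy chain peaks that are single throughout, both genes kept a promoter peak, at folds of 6.53 for H2-K1 and 4.01 for H2-D1. Whether copied sequence has a part in the absence of peaks downstream of both curated starts was not tested. The promoter peaks of the other 7 genes with one were single throughout (100% of words).

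**Figure D3:**
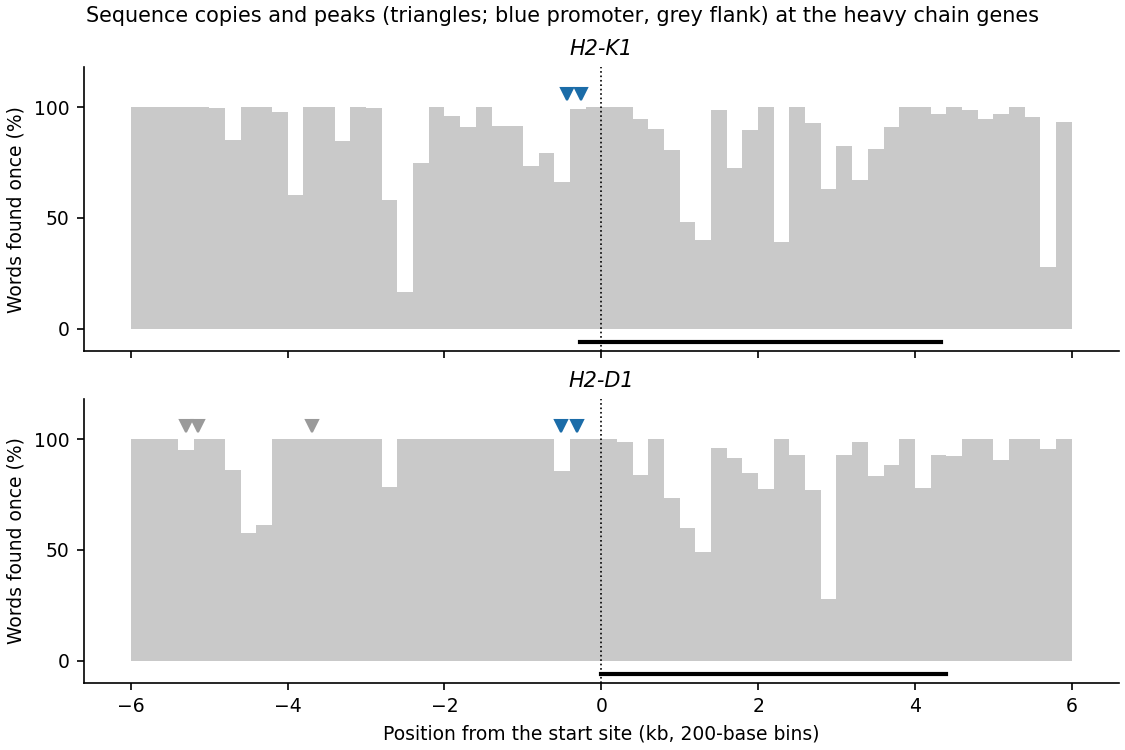
Share of 50-base words found once in the genome (y axis, percent) in bins of 200 bases along H2-K1 and H2-D1, by distance from the start site in kb (x axis). Triangles are peak summits (blue promoter, grey flank) and black lines the genes. Promoter peaks stand upstream of both starts, and no peak stands downstream of them. The share of single words falls in places on both sides, and it is 98.5 to 100% in the 400 bases after each start.

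B2m encodes the light chain shared by every class I molecule (GeneID 12010, chr2:122147687-122153082, plus strand). It had 5 promoter peaks, 2 upstream and 3 downstream of the start site. The strongest by fold, 8.24 with 18 fragments, lay farthest upstream with its summit at 1873 bp, and was 852 bp wide. The peak with its summit 273 bp upstream was 936 bp wide and carried the most fragments of all 53 peaks, 37 (26.1 to 51.0), with a -log10 q of 15.1. Its fold was 6.75, because the background was 4.00 fragments there and 1.05, the lowest background that the recovery accepted, at the farther peak. The 3 downstream peaks, 417, 721 and 1067 bp into the gene, were weaker, with folds of 4.36 to 4.79 and 9 or 10 fragments. The B2m flank held 3 peaks, which lay at the promoter of Trim69. All of B2m lies inside the RefSeq span of Patl2, so these peaks cannot be told apart by gene.

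Psmb9, Tap1, Psmb8 and Tap2 follow each other within 34.3 kb of chromosome 17, and their peaks fell in 3 groups. The first group, of 5 peaks, lay at the shared promoter of Psmb9 (GeneID 16912, chr17:34182030-34187330, minus strand) and Tap1 (GeneID 21354, chr17:34187556-34197225, plus strand), and each of the 5 counted for both genes. Its strongest folds were 5.22 with 11 fragments, found at 3 peaks with summits 679 bp upstream and 978 and 1485 bp downstream of the Tap1 start. The peak at chr17:34187540-34187621, 8 bp past the Tap1 start, had 30 fragments (20.2 to 42.8). Its fold was 4.59, over a local background of 5.00 fragments. Of these 5 summits, 1 lay in Psmb9 and 4 in or at Tap1, so the mark fell mostly on the Tap1 side of the shared promoter. Of the 225 bases that separate both starts, 16 lay under a peak.

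Psmb8 encodes another immunoproteasome subunit (GeneID 16913, chr17:34198195-34201454, plus strand), and it had the second group of 5 peaks. They followed each other from 915 bp upstream to 257 bp downstream of its start, with folds of 4.13 to 6.10. The strongest, with 16 fragments, had its summit 5 bp before the start, 69 of the 250 printed bases lay under it, and its -log10 q of 7.32 fell just short of the 7.40 that bounds the strongest 25% of the list. The peaks of Psmb8 also lie just behind the end of Tap1, and their side cannot be told apart from the 3′ flank of that gene.

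Tap2 encodes the other chain of the transporter (GeneID 21355, chr17:34204479-34216321, plus strand). It had 2 promoter peaks, both downstream of the start, with summits at 150 bp (fold 6.17, 14 fragments) and 736 bp (fold 7.80, 17 fragments, interval 9.90 to 27.2). The latter, 397 bp wide, was the strongest of the cluster by fold. A single flank peak behind Tap2, at 14.1 kb from the start, had a fold of 4.79. Between these groups, the bodies of Tap1, Psmb8, Tap2 and Psmb9 held no peak.

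**Figure D4:**
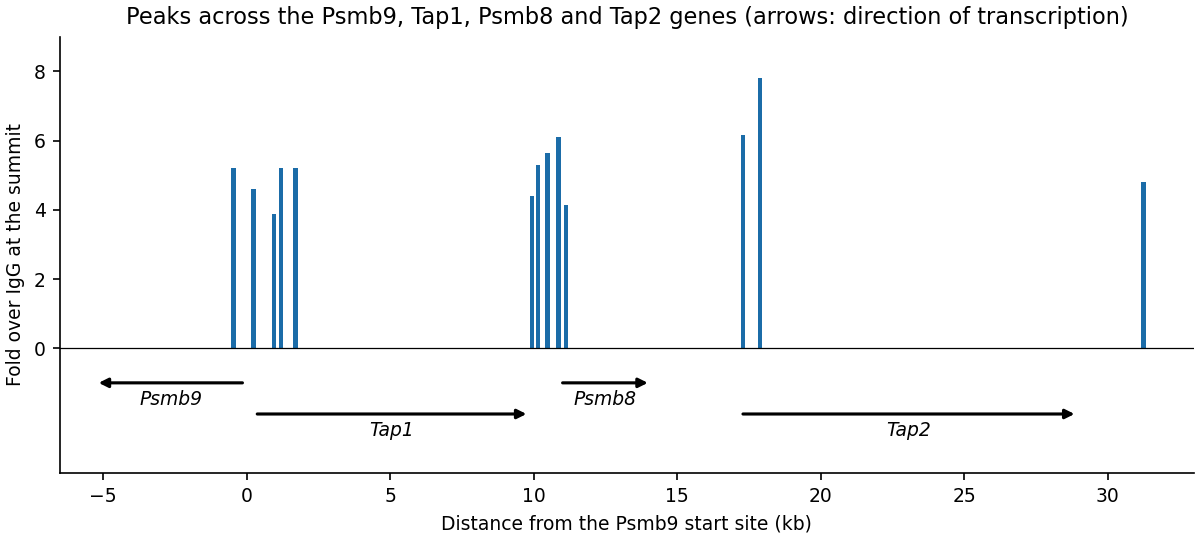
Fold over IgG at the summit (y axis) of the 13 peaks at Psmb9, Tap1, Psmb8 and Tap2, by distance in kb from the Psmb9 start site (x axis). Arrows show the genes and their direction. The peaks form 3 groups at the starts of the genes and a lone peak behind Tap2, and the highest, with a fold of 7.80, stands inside Tap2.

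Tapbp, which encodes tapasin (GeneID 21356, chr17:33919478-33929290, plus strand), had 1 promoter peak on either side of its start. The upstream one, 423 bp away and 384 bp wide, had a fold of 6.94 with 15 fragments (8.40 to 24.7), and the downstream one, at 442 bp, a fold of 5.05 with 16 fragments. The upstream summit lies in Zbtb22, and the noncoding RNA Gm19412 starts in the same promoter window, so the peaks cannot be given to Tapbp alone. Its 3 flank peaks lay at the promoters of Zbtb22, Daxx and BC051226.

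Psmb10 encodes the third immunoproteasome subunit (GeneID 19171, chr8:105935728-105938392, minus strand) and lies outside the MHC. It had 4 promoter peaks and no other. The strongest, at chr8:105938403-105938521, had its summit 80 bp before the start, a fold of 8.14 with 21 fragments (13.0 to 32.1). The other 3 lay 138, 598 and 776 bp downstream with folds of 3.58 to 6.08. With B2m, Psmb10 was at the top of the 9 genes, and it had the fewest CpG dinucleotides of them, 17 within 500 bp of the start. All genes were put in 10 strata of equal size by this CpG content, and in the stratum of Psmb10 17.5% of genes had a promoter peak.

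CpG content differed widely among the members. H2-K1 and H2-D1 both had 79 CpGs in the same 1 kb, and 70.6% of genes of that stratum had a promoter peak. Tap1 had 63 (67.8%), Tap2 53, Psmb9 52 and Psmb8 50 (64.0% each), and B2m 42 and Tapbp 41 (49.0% each). Nlrc5 had 11 at its curated start, in the same stratum as Psmb10. The count of 9 genes stands beside shares of 49.0 to 70.6% for 8 of the 9, which are higher than the 45.6% of all genes.

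Where in the promoter the mark lay also varied. A peak overlapped the 250 bases before a start site in 7 of the 10 genes, and in 16.6% of all genes. The overlap was 119 bases in Psmb10, 108 in Tapbp, 69 in Psmb8, 49 in H2-K1, 41 in Psmb9, 19 in B2m and 16 in Tap1. H2-D1 had no peak over these bases, so its NF-kB-like, CRE core and Y box letters, printed above, all lay between its nearest peak and its start. Summits were found on both sides of the start in B2m, Tap1, Psmb8, Psmb9, Psmb10 and Tapbp, upstream alone in H2-K1 and H2-D1 and downstream alone in Tap2.

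Nlrc5 encodes the transactivator of class I genes (GeneID 434341, chr8:94434335-94527272, plus strand), and the answer for it depends on the start site. The curated start, at 94472763, had its nearest summit 12.5 kb away. RefSeq also predicts a start 38.4 kb upstream, at 94434335, and GENCODE lists 3 within 100 bases of it. That start had 3 promoter peaks, and the strongest had a fold of 8.24 with 18 fragments (10.7 to 28.4). With curated and predicted start sites together, 10 of the 10 genes and 46.8% of all genes had a promoter peak. This peak, at chr8:94434454-94435244, lies also over the noncoding RNA 9330175E14Rik on the other strand, from which it cannot be told apart.

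Behind the predicted start, 8 peaks covered 4604 bp of a stretch of 9851 bp (chr8:94434454-94444304). This run held the strongest and the widest of the 53 peaks. The strongest by fold, at chr8:94441210-94442418, had a fold of 9.84 with 23 fragments (14.6 to 34.5) and was 1209 bp wide, and the widest was 1657 bp with a fold of 5.64. The other 7 gene body peaks were scattered: 3 lay 13.8 to 14.8 kb before the curated start, 3 lay 12.5 to 13.2 kb behind it and 1 at 44.3 kb, with folds of 3.93 to 6.08. The flank peak behind Nlrc5 lay at the promoter of Cpne2.

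Genes that work with the 10 were counted in lists by role, beside the 45.6% of all protein-coding genes with a promoter peak. Of the 7 constitutive subunits that Psmb8, Psmb9 and Psmb10 replace or sit beside, all 7 had a promoter peak, led by Psmb7 with a fold of 16.4, Psmb2 with 11.7 and Psmb1 with 9.96. All 5 proteasome activators and assembly factors had one, among them Pomp, which assembles the proteasome (12.7), Psme4 (8.29) and Psme1 (7.80). Of the 7 chaperones and trimming enzymes 6 had one, led by the lectin chaperone calnexin, Canx (12.2), the tapasin relative Tapbpl (10.8) and the peptidase Erap1 (10.2). The chaperone gene Hspa5 had none, and its nearest summit was 27.2 kb away. The median strongest fold was 8.88, 7.80 and 10.2 in these lists, against 6.53 in the 10 genes and 7.24 over all genes. The mean share with a promoter peak over the CpG strata of their genes was 63.5%, 62.1% and 62.1%.

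The factors that act on class I promoters were also marked in most cases. Of 8 genes for the RFX, CREB, ATF and NF-Y proteins, 7 had a promoter peak, led by Rfx5 (15.1), Creb1 (14.2) and Atf1 (33 fragments), and Rfxap had none. All 13 genes of interferon and NF-kB signaling had one, among them the signal transducer Stat2 (14.7) and its partner Irf9 (13.0). Beside the 45.6% of all genes, the mean over the CpG strata was 61.7% for the promoter factors and 66.1% for the signaling genes. A promoter peak marks the gene and does not measure signaling through its product.

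Of the other class I heavy chains, 5 of 15 had a promoter peak (33.3%), and 3 in the strongest 25% of the list. Over all genes the share was 45.6%, and the mean over the CpG strata of the 15 was 39.4%. The strongest were H2-T23 (8.24), H2-M3 (7.55) and H2-Q7 (6.94). H2-Q1, H2-Q2 and H2-Q4 had no promoter peak, and their nearest summits were 8.99, 30.8 and 59.3 kb away. In the promoter windows of H2-Q1, H2-Q2 and H2-Q4, 84.7%, 88.5% and 82.2% of the 50-base words were single. The share was 84.9% in the window of H2-K1 and 91.3% in that of H2-D1. The lowest shares in this list were 44.7% at H2-Q7, which had a promoter peak, and 43.6% at H2-Q6, which had none. The share of class II genes with a promoter peak was 1 of 10 (10.0%), beside a mean of 19.1% over their CpG strata. H2-DMa had one (8.31) that the gene Brd2 shares, and H2-Aa, H2-Ab1 and H2-Eb1 had none, like the class II transactivator Ciita, with its nearest summit at 12.1 kb.

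**Figure D5:**
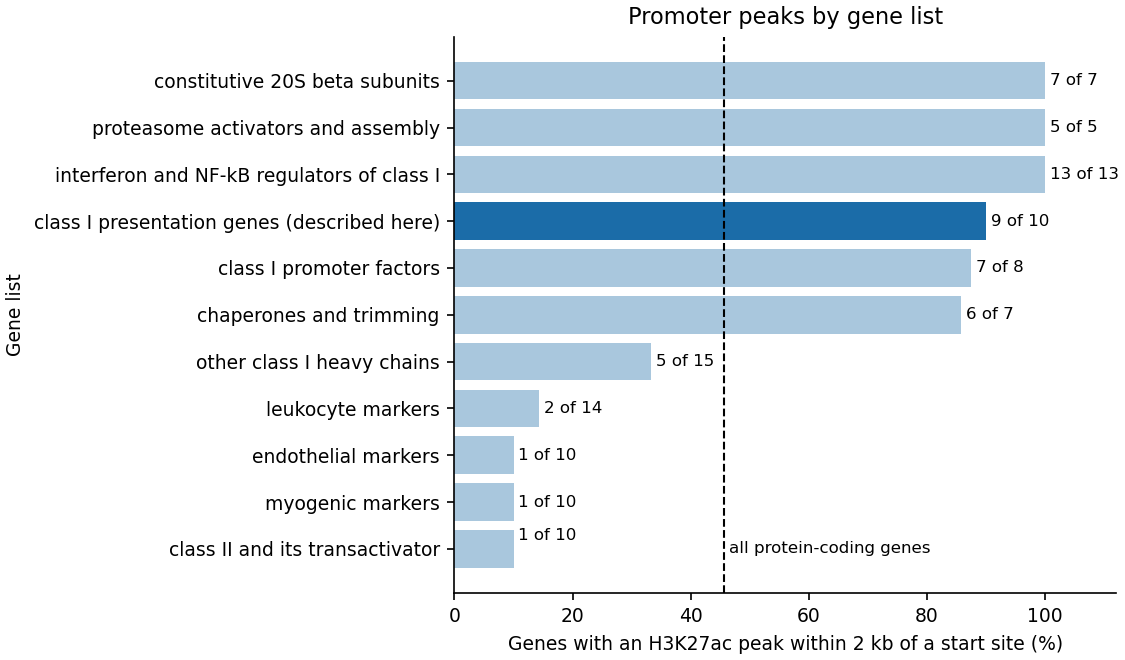
Share of genes with an H3K27ac peak within 2 kb of a curated start site (x axis, percent) by gene list (y axis), with the number of genes beside each bar. The dark bar is the 10 genes described here and the dashed line the 45.6% of all protein-coding genes. Lists of presentation and signaling genes lie right of the line, and other heavy chains, class II genes and cell type markers lie left of it.

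Markers of leukocytes, of endothelial cells and of the myogenic lineage were counted in the same library. Of 14 leukocyte genes 2 had a promoter peak (14.3%, beside 45.6% of all genes and a mean of 18.1% over the CpG strata of the 14), Cd68 (5.91, 13 fragments) and Fcer1g (4.57, 10 fragments). The Fcer1g summit lay 2.04 kb from the start, so the count is 1 with summits inside the window, it is 0 in the strongest 25% of the list, and it is 3 with a 5 kb window. The pan-leukocyte gene Ptprc, Cd3e and Cd3d had none. Of 10 endothelial genes Cd34 had one (9.10), and Pecam1, Cdh5 and Kdr had none; the mean over their CpG strata was 34.4%. With GENCODE start sites 3 of the 10 had one, and with a 5 kb window 2. Of 10 genes of the myogenic lineage, in which Cre acts, Myf6 had one (5.97), and Myod1, Myog and Myf5 had none, so the defining marker genes of this lineage were mostly without a promoter peak. The mean over their CpG strata was 40.7%, and 0 of the 10 had a peak in a 1 kb window or in the strongest 25% of the list and 2 in a 5 kb window. A peak in the gene or within 10 kb was found at 5 of the 14 leukocyte genes and 7 of the 10 endothelial genes. The same was found at 5 of the 10 myogenic genes, beside 63.2% of all genes. How far leukocytes or other cells of the tumor contribute to the peaks of the class I genes was not tested.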

How the data were processed

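H3K27ac was profiled by CUT&RUN on live-sorted cells of MCP tumors, and the deposited peak list of 1 library (replicate 5) was used. According to the methods of the study, read pairs were mapped with bowtie to mm10, problematic regions and a region near Col19a1 were removed, and peaks were called with MACS against IgG. The submitters' processing notes name BWA, SAMtools, MACS2 and the builds mm10 and dm6 instead, so the tools and the threshold behind this list are uncertain. The largest q in the list was 0.0471.

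The authors' caller gave each peak a fold, which is the ratio of its scaled summit height to the background there, with the same constant added to both. The fold is therefore smaller than fragments divided by background. The deposited -log10 p and -log10 q describe the summit, and the deposited score equaled the whole part of 10 times the -log10 q in all 122375 peaks. The deposited summit offset gave the summit position. Fold and p were used within the list only. The list states no depth, so whole fragment numbers were solved from fold and p together with a scale of 0.884 between the libraries. Solutions with a background below 1.05, the median at the most frequent pairs of fold and p, were left out. All peaks but 1 then gave a whole number within 0.01 on the -log10 p scale, and 96.8% gave a single one. With a scale 3% off, 1.17% of the peaks among the most frequent pairs of fold and p did. The median peak of the list had 13.0 fragments, a relative Poisson error of 27.7%. Intervals are exact Poisson intervals at 95% for the H3K27ac fragments, and as folds they hold the background fixed.

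Start sites were those of curated RefSeq transcripts (GRCm38.p6), and coordinates are those of mm10. No peak number was absent from the list within the loci of the 10 genes (584 were absent elsewhere). Copies of 50-base words were counted on chromosomes 1 to 19, X and Y. Motifs were searched on both strands in the 250 bases before a start site. The 10 genes are all named; from each other list, up to 3 genes with the strongest promoter fold and up to 3 without a promoter peak in list order are named, with genes that share a promoter peak with a member. A gene that this rule names is not reported here. The genes and lists were chosen with earlier results of these data known. Fragment recovery, overlaps, word copies and motif search were tested on simulated data. Python 3.11.15, pandas and SciPy were used.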

Additional observations from a re-analysis of the deposited data

How the results depend on the processing

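With 1 library, the values have counting error and no replicate error, and peaks of 8 to 37 fragments cannot order the genes. No paired analysis was possible because only a single library was at hand. The number of genes with a promoter peak stayed between 8 and 10 of 10 under thresholds, windows, summits and GENCODE start sites, and their median strongest fold between 6.53 and 6.73. Genes with a promoter peak in the other lists numbered 48 of 99, and 40 to 52 under the alternatives, while single lists moved more: leukocyte markers from 2 to between 0 and 3, myogenic markers from 1 to 0 or 2, endothelial markers from 1 to 2 or 3 and other heavy chains from 5 to 3. The 53 peaks in the loci fell to 10 in the strongest 25% of the list. At a -log10 q of at least 5 there were 24. Each of the 10 genes still had at least 1, which for Psmb8 in the strongest 25% was a Tap2 promoter peak in its flank. With flanks of 5 and 20 kb there were 45 and 65. Within 100 bases of the start in place of 250, 6 in place of 7 genes held a motif, and the NF-kB-like site was found in none in place of 3. The choices of predicted start sites, of single-copy heavy chain peaks and of the curated gene span (42 peaks) were made after seeing the data.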
